A study of Homo sapiens with 6 samples.

Results

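The 36 genes described here encode proteins that take up glucose, break it down to pyruvate and lactate, pass pyruvate to the mitochondria and run the pentose phosphate branch. They were chosen as a written list of gene symbols and matched to the gene identifiers of the count table by name, with earlier results of these data known, and are 36 of the 58735 genes in that table. The RNAseq data came from Meg-01 cells, an established human megakaryoblastic leukaemia cell line. One group of 3 libraries (C3) came from cells stimulated with 500 µM sodium propionate, a short-chain fatty acid, and the Control group of 3 libraries came from untreated cells of the same line. Treatment lasted 48 h by the labels, while the study's methods name both 24 h and 48 h before RNA extraction. The study describes the 3 libraries of a group as technical replicates, so the p-values below measure only the spread between libraries of 1 cell line. The question was which genes differ in mRNA between cells with and without C3. Because bulk RNA was measured, fewer cells expressing a gene and less of its RNA per cell cannot be told apart.

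In glycolysis, glucose enters the cell through transporters, is phosphorylated by hexokinase and split by aldolase, and its fragments are oxidised to pyruvate with a net gain of ATP. Pyruvate is then reduced to lactate or carried into mitochondria, where pyruvate dehydrogenase turns it into acetyl-CoA, while the pentose phosphate pathway branches off at glucose 6-phosphate and yields NADPH and ribose. Several steps are served by isozymes, proteins from different genes that catalyse the same reaction with different kinetics and tissue distribution. Platelets and their megakaryocyte precursors are known to rely strongly on glycolysis.

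The libraries held between 16159449 and 22821722 counts. Of the megakaryoblast markers, 12 of 13 were expressed above the count filter (at least 10 counts in at least 3 libraries), among them ITGA2B and GATA1, whereas PF4 was at 0 in every library. CD34 (log2 fold change of C3 against Control 0.40, edgeR adjusted p = 0.00046) and ITGB3 (0.34, edgeR adjusted p = 0.0325) were higher and GP1BA (-0.49, edgeR adjusted p = 2.2e-06) was lower in C3, and the other tested markers were not called. The summed normalized count of these markers was between 33550 and 34734 in Control and between 32041 and 34084 in C3. T and B cell markers summed to between 91.2 and 120.6 in Control and between 90.97 and 124.1 in C3, with MS4A1 at 0, and stromal and epithelial markers to between 2266 and 2566 and between 1998 and 2218. Monocyte and granulocyte markers summed to between 899.1 and 945.3 in Control and between 719.7 and 745 in C3, most of it from LYZ, which was lower in C3 (-0.51, edgeR adjusted p = 4.7e-05). Of the stromal and epithelial markers, KRT18 was lower (-0.34, edgeR adjusted p = 0.00145) and COL1A1, at no more than 26.66 normalized counts in any library, was higher (1.89, edgeR adjusted p = 0.00942). Whether cells with these markers have a part in the results below was not tested.

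All 36 genes passed the count filter. With edgeR's quasi-likelihood test and a Benjamini-Hochberg adjusted p-value below 0.05, 4 members were higher in C3, beside 11.0% of the 15078 genes tested. These were PFKM, PFKFB4, ALDOA and ENO2. At the same threshold 7 members were lower in C3, beside 8.77% of all genes tested. These were the glucose transporter gene SLC2A1, the lower glycolytic genes TPI1 and GAPDH, the pyruvate dehydrogenase gene DLAT and the pentose phosphate genes PGLS, PGD and TALDO1. The other 25 members were not called. The counts for single steps of the pathway, each with 8 genes or fewer, stand against the same 11.0% and 8.77%. Genes on the opposite strand overlap 32.8% of the canonical transcript of GAPDH, 25.9% of that of DLAT, 23.9% of that of PGLS and 14.7% of that of SLC2A1, and without the strand setting it is not known how the reads shared by these 4 genes and their partners were counted. At the stricter gates that the study set for differentially expressed genes, called DEGs here (fold above 1.3 at an adjusted p-value under 0.01), 3 members were higher (PFKFB4, ALDOA and ENO2), beside 5.05% of all genes, and 1 was lower (PGLS), beside 1.47%. With DESeq2, the tool named in the submitters' processing notes, ALDOA did not pass these gates (adjusted p = 0.0134), which left 2 higher DEGs. Without Control replicate 1 only ENO2 remained a higher DEG, and without C3 replicate 3 there were 0 lower DEGs. The 7 lower calls became 4 without Control replicate 1, 3 without Control replicate 2 or C3 replicate 2, and 2 without C3 replicate 3. The median log2 fold change, given throughout as C3 minus Control, was -0.049 over the members and 0.0021 over all genes tested. With library size alone in place of TMM scaling, the calls split into 8 higher and 3 lower, or 72.7% higher against 36.4%. SLC2A1, GAPDH, DLAT and TALDO1 were then no longer called, SLC2A3, HK2, PFKP and ALDOC were called higher, and the median was 0.026 over the members and 0.076 over all genes.

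Every C3 library exceeded every Control library for 7 members, the reverse held for 9, and the groups overlapped for 20. Over all genes tested the corresponding shares were 17.5%, 16.9% and 65.6%. The member mRNAs together made up 1.652% ± 0.009 of all counts in Control and 1.594% ± 0.054 in C3 (mean ± SD, n = 3), a difference that did not pass the exact two-sided permutation test (p = 0.3, where 3 against 3 libraries cannot give less than 0.1).

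**Figure D1:**
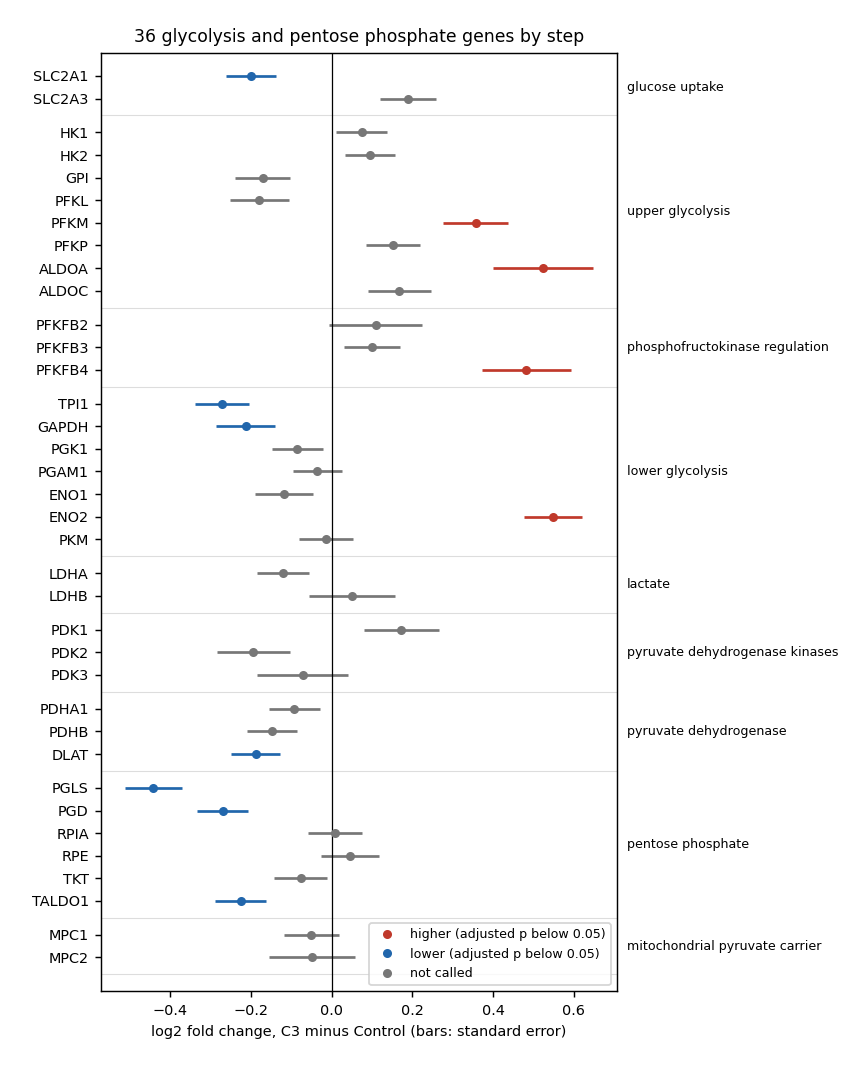
Log2 fold change of each of the 36 members (x axis, C3 minus Control, bars are the standard error derived from the test statistic), grouped by step of the pathway, with members higher or lower at an adjusted p-value below 0.05 in colour. The 4 higher members lie in upper glycolysis, phosphofructokinase regulation and the enolase step, and 3 of the 7 lower members lie in the pentose phosphate pathway.

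Of the called members, 3 are near neighbours on chromosome 12 with different directions of change, GAPDH and TPI1 lower and ENO2 higher. TPI1 and ENO2 lie 42.8 kb apart on the same strand. Only genes lying wholly between them were counted. These were 3, none of them protein coding, of which 2 were tested and neither was called. GAPDH and TPI1 lie 328.7 kb apart with 27 genes counted between them, of which 15 were tested, 3 were higher and 1 was lower. Genes that overlap 1 of the pair were left out of both counts. A gene on the opposite strand overlaps 1.04% of the canonical TPI1 transcript, so a protein-coding gene between TPI1 and ENO2 is not excluded. The 250 bases before the RefSeq start used for each gene (GRCh38.p14, plus strand) are printed to show how these neighbours differ there. They lie at chr12:6535014-6535263 for GAPDH, chr12:6867281-6867530 for TPI1 and chr12:6914330-6914579 for ENO2. The GENCODE spans of these genes begin earlier, at 6534512, 6867119 and 6913745. Each printed stretch thus lies inside the gene span and precedes a later start, and upstream refers below to the RefSeq start only. Capitals mark ACGTG on either strand, the core of the element bound by hypoxia-inducible factors, which is also contained in the E-box CACGTG.
GAPDH: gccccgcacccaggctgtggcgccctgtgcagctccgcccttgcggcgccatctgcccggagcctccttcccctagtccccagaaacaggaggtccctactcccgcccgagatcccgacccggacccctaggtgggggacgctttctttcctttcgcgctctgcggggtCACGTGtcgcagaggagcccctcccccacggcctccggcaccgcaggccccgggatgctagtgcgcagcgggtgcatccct
TPI1: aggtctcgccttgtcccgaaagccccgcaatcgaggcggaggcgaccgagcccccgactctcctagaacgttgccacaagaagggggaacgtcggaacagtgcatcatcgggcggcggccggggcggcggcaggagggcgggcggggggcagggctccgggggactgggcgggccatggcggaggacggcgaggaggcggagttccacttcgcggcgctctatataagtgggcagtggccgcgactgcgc
ENO2: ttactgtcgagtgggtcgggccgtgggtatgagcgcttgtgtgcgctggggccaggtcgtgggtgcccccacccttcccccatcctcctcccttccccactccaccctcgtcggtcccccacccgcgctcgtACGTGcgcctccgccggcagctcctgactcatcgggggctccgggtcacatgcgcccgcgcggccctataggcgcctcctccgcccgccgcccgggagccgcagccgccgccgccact

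The stretch printed for GAPDH, inside its GENCODE span, held 1 CACGTG, which reads as ACGTG on both strands. That of ENO2 held 1 ACGTG outside a CACGTG, and that of TPI1 held neither. Upstream sequences were found for 34 of the 36 members (not for PFKFB2 and SLC2A3). ACGTG was present in 15 of these 34, against 18.5% of all 35116 upstream sequences of this length, and CACGTG in 6 of 34, against 6.34%. The 35116 sequences outnumber the 15078 genes tested and were not matched to the members in expression or base content. Whether the members differ from comparable genes in these motifs was therefore not tested. Among members called higher, 2 of 4 held ACGTG and 0 of 4 held CACGTG, and among those called lower 3 of 7 and 1 of 7. These are matches of letters, not measured binding.

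Glucose uptake is represented by SLC2A1, which encodes the widely expressed transporter GLUT1, and SLC2A3, which encodes the high-affinity transporter GLUT3. Normalized counts of SLC2A1 were 2441, 2440 and 2386 in Control and 2189, 2007 and 2127 in C3. All C3 libraries were below all Control libraries, and the log2 fold change was -0.20 (SE 0.062, edgeR's quasi-likelihood test, adjusted p = 0.0214). This call was lost without Control replicate 1 (adjusted p up to 0.127 over the left-out libraries), and also without Control replicate 2, C3 replicate 2 or C3 replicate 3. SLC2A3 had 1384, 1595 and 1612 in Control and 1629, 1856 and 1740 in C3, all C3 libraries higher, but did not pass the test (log2 fold change 0.19, SE 0.070, edgeR adjusted p = 0.0593). It was called higher with library size alone, no count filter or a replicate block, and without Control replicate 3 or C3 replicate 1, at adjusted p-values between 0.0128 and 0.0416. Per transcript length, SLC2A3 made up 35.8% ± 2.13 of the mRNA of both transporters in Control and 42.2% ± 2.66 in C3 (SD, n = 3).

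Upper glycolysis held 2 higher and 0 lower genes of 8, beside 11.0% and 8.77% of all genes. PFKM encodes the muscle-type subunit of phosphofructokinase, the main control point of glycolysis. Its normalized counts were 650.5, 643.7 and 644.8 in Control and 931, 832.6 and 730.1 in C3. The Control libraries lay within a few counts of each other while the C3 libraries spread widely above them (log2 fold change 0.36, SE 0.081, edgeR adjusted p = 0.00253). The fold of 1.281 was below the DEG gate. PFKM passed both DEG gates with library size alone (log2 fold change 0.43, edgeR adjusted p = 0.0006) and without C3 replicate 3 (0.45, edgeR adjusted p = 0.00076). The liver-type subunit PFKL had 10341 ± 883.5 in Control and 9133 ± 831.4 in C3 and did not pass the test (log2 fold change -0.18, SE 0.073, edgeR adjusted p = 0.0843), except with no count filter (0.0437), without Control replicate 3 (0.0191) or without C3 replicate 1 (0.00626). The platelet-type subunit PFKP was at 3167 ± 202.8 and 3521 ± 266.1 (0.15, SE 0.067, edgeR adjusted p = 0.118). Per transcript length, PFKL remained the most abundant of these with 71.5% ± 1.04 of the phosphofructokinase mRNA in Control and 66.1% ± 0.937 in C3. PFKP held 24.3% ± 0.812 and 28.2% ± 0.452 and PFKM 4.22% ± 0.318 and 5.66% ± 0.534. For each of the 3 shares the groups did not overlap.

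ALDOA encodes the aldolase that splits fructose 1,6-bisphosphate in most tissues. Its normalized counts were 143, 141 and 181.5 in Control and 217.4, 223.9 and 225.1 in C3. All C3 libraries were higher (log2 fold change 0.52, SE 0.124, edgeR adjusted p = 0.00353). This value is uncertain, because 89.8% of the canonical ALDOA transcript overlaps another annotated gene on the same strand, ENSG00000285043, which itself received 19 to 44 counts per library, and featureCounts by default leaves out reads that overlap 2 genes. If that default was kept, the counts of ALDOA are only a part of its reads, and its level against that of other genes is uncertain. ALDOC, the brain-type aldolase, was higher in every C3 library but did not pass the test (0.17, SE 0.077, edgeR adjusted p = 0.131). The hexokinase genes HK1 and HK2, whose products trap glucose in the cell, had log2 fold changes of 0.07 (SE 0.063) and 0.10 (SE 0.062). GPI, which interconverts glucose and fructose 6-phosphate, had -0.17 (SE 0.068). None of these 3 passed the test, although GPI was called lower with DESeq2 (adjusted p = 0.0231), limma-voom (0.0485), no count filter (0.0489) and without C3 replicate 1 (0.00175).

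The PFKFB enzymes set the level of fructose 2,6-bisphosphate, the strongest activator of phosphofructokinase. Of 3 genes, 1 was higher and 0 were lower, beside 11.0% and 8.77% of all genes. PFKFB4 had 200.8, 249.2 and 234 normalized counts in Control and 294.8, 304.3 and 351.3 in C3. Every C3 library exceeded every Control library (log2 fold change 0.48, SE 0.110, edgeR adjusted p = 0.00257). PFKFB3 (0.10, SE 0.070) and PFKFB2 (0.11, SE 0.115) did not pass the test. Per transcript length, PFKFB4 made up 20.1% ± 2.29 of the PFKFB mRNA in Control and 24.5% ± 1.33 in C3, and PFKFB3 made up most of it in both groups.

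In lower glycolysis, 1 of 7 genes was higher, close to the 11.0% of all genes, and 2 were lower, beside 8.77%. ENO2 encodes gamma-enolase, the enolase typical of neurons, and had the smallest p-value of the 36 members. Its normalized counts were 785.7, 825 and 868.1 in Control and 1299, 1147 and 1182 in C3, so that the lowest C3 library exceeded the highest Control library. The increase was 46.3% (log2 fold change 0.55, SE 0.071, edgeR adjusted p = 4.3e-06). ENO1, which encodes the ubiquitous alpha-enolase, had 78144 ± 922.9 in Control and 71953 ± 5476 in C3 and was not called (-0.12, SE 0.072, edgeR adjusted p = 0.264). Without C3 replicate 1, ENO1 was called lower (-0.18, edgeR adjusted p = 0.00545). Scaled to canonical transcript length and sequencing depth (RPKM), ENO1 was at 2357 in Control and 2170 in C3 and ENO2 at 19.35 and 28.31. ENO2 was thus 0.814% ± 0.0324 of the summed mRNA of ENO1 and ENO2 in Control and 1.29% ± 0.013 in C3. ENO3, described below, was not part of this total.

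TPI1, the triose phosphate isomerase that interconverts the products of aldolase, had 15706, 16211 and 16397 normalized counts in Control and 14574, 12485 and 12960 in C3. All C3 libraries were lower (log2 fold change -0.27, SE 0.067, edgeR adjusted p = 0.00497), and without C3 replicate 3 the adjusted p was 0.0502. GAPDH oxidises glyceraldehyde 3-phosphate and is also the reference gene of the study's quantitative PCR. It had 52717, 54778 and 56515 in Control and 52034, 44664 and 44815 in C3. C3 replicate 1 lay just below the lowest Control library and the other two lay clearly lower (-0.21, SE 0.073, edgeR adjusted p = 0.0384). The GAPDH call was lost without any single library other than C3 replicate 1, with an adjusted p of up to 0.234. PGK1, PGAM1 and PKM, which carry the pathway on to pyruvate with ENO1, were not called, with log2 fold changes between -0.085 and -0.014. PKM, the pyruvate kinase gene, had 32850 ± 450.1 normalized counts in Control and 32537 ± 1542 in C3 (-0.014, SE 0.066).

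**Figure D2:**
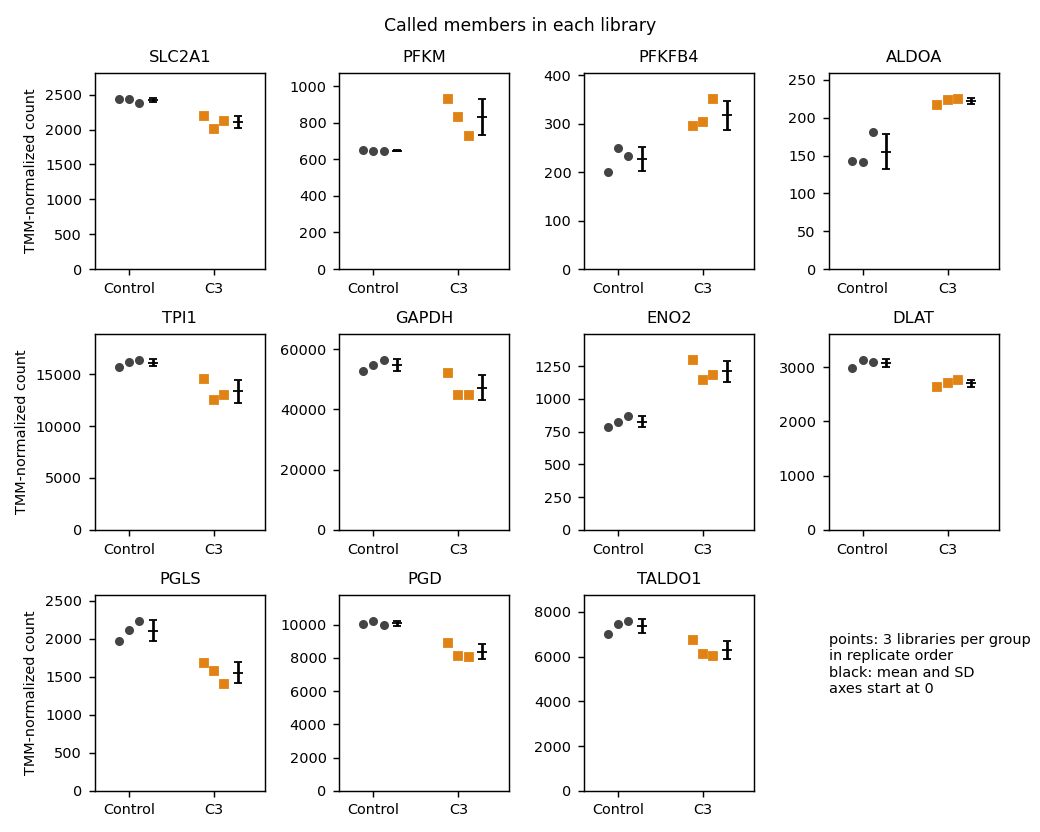
TMM-normalized counts (y axes, each from 0) of the 11 called members in each of the 3 Control and 3 C3 libraries, with the mean and SD of each group beside the points. The members shown were chosen by their p-values in these same libraries, so the lack of overlap in every panel is no further support. GAPDH shows C3 replicate 1 at 52034, close to the lowest Control library at 52717.

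At the fate of pyruvate, the lactate dehydrogenase genes LDHA and LDHB were not called, with log2 fold changes of -0.12 (SE 0.065) and 0.05 (SE 0.107). The count of LDHB is uncertain for the same reason as that of ALDOA, since 76.5% of its canonical transcript overlaps the same-strand gene ENSG00000285854. The 3 kinases that switch off pyruvate dehydrogenase, PDK1, PDK2 and PDK3, were not called (0.17, -0.19 and -0.072). Genes on the opposite strand overlap 62.8% of the canonical transcript of PDK2, so its value carries the doubt raised for GAPDH. The mitochondrial pyruvate carrier genes MPC1 and MPC2 had -0.051 (SE 0.068) and -0.048 (SE 0.107) and were not called either.

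The pyruvate dehydrogenase complex was represented by 3 genes, of which 0 were higher and 1 was lower, beside 11.0% and 8.77% of all genes. DLAT, the acetyltransferase core of the complex, had 2991, 3136 and 3101 normalized counts in Control and 2629, 2697 and 2769 in C3. All C3 libraries were lower (log2 fold change -0.19, SE 0.061, edgeR adjusted p = 0.0283), but the call was lost without Control replicate 1, Control replicate 2, C3 replicate 2 or C3 replicate 3, with an adjusted p of up to 0.146. PDHA1 and PDHB, the subunits of the decarboxylating enzyme, also had all C3 libraries below Control without passing the test (-0.093, SE 0.063, edgeR adjusted p = 0.331, and -0.15, SE 0.063, edgeR adjusted p = 0.0999).

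In the pentose phosphate pathway 0 of 6 genes were higher and 3 were lower, beside 11.0% and 8.77% of all genes. PGLS and PGD act in the oxidative branch, in which PGLS hydrolyses 6-phosphogluconolactone and PGD produces NADPH. PGLS had 1966, 2109 and 2240 normalized counts in Control and 1679, 1573 and 1402 in C3. It fell by 26.4%, the largest decrease among the members, with all C3 libraries lower (log2 fold change -0.44, SE 0.071, edgeR adjusted p = 7e-05). PGD had 10036, 10250 and 9959 in Control and 8890, 8123 and 8073 in C3, again without overlap (-0.27, SE 0.063, edgeR adjusted p = 0.00307). TALDO1, the transaldolase of the non-oxidative branch, had 7024, 7451 and 7611 in Control and 6748, 6113 and 6021 in C3. It was lower in all C3 libraries (-0.23, SE 0.064, edgeR adjusted p = 0.0137), and the call was lost without Control replicate 2, C3 replicate 2 or C3 replicate 3 (adjusted p up to 0.119). The other non-oxidative genes RPIA, RPE and TKT had 0.008 (SE 0.068), 0.05 (SE 0.072) and -0.077 (SE 0.066) and were not called.

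Isozymes were also compared as the log2 ratio of 2 counts within a library, which does not depend on library scaling. Of 12 pairs, 5 ratios were higher in all C3 libraries, 1 was lower in all, and 6 overlapped. The exact two-sided permutation test gave p = 0.1 for each of the first 6, the smallest value that 3 against 3 libraries allow, so none passed 0.05 before or after adjustment. No share over other gene pairs was computed to set beside these counts. Some pairs share a denominator, such as PFKM and PFKP over PFKL. ENO2, PFKM and PFKP are the less abundant isozymes of their pairs, and the part of expression level in these ratios was not tested. The largest difference was that of ENO2 to ENO1, from -6.56 ± 0.058 in Control to -5.89 ± 0.015 in C3 (SD, n = 3). PFKM to PFKL went from -4.00 ± 0.124 to -3.46 ± 0.158 and PFKP to PFKL from -1.71 ± 0.069 to -1.37 ± 0.043. SLC2A3 to SLC2A1 went from -0.67 ± 0.134 to -0.28 ± 0.157 and PFKFB4 to PFKFB2 from -0.32 ± 0.285 to 0.06 ± 0.123. The difference in PFKFB4 to PFKFB2, 0.38 with all libraries, was 0.22 without Control replicate 1, which had the lowest ratio. When single libraries were left out, the difference in ENO2 to ENO1 stayed between 0.64 and 0.70, that in PFKM to PFKL between 0.47 and 0.62, that in PFKP to PFKL between 0.29 and 0.36 and that in SLC2A3 to SLC2A1 between 0.31 and 0.46. The ratio of ALDOC to the uncertain ALDOA count was lower by 0.36. HK2 to HK1, in contrast, differed by 0.02 with overlapping libraries (exact permutation p = 0.5, n = 3 per group).

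**Figure D3:**
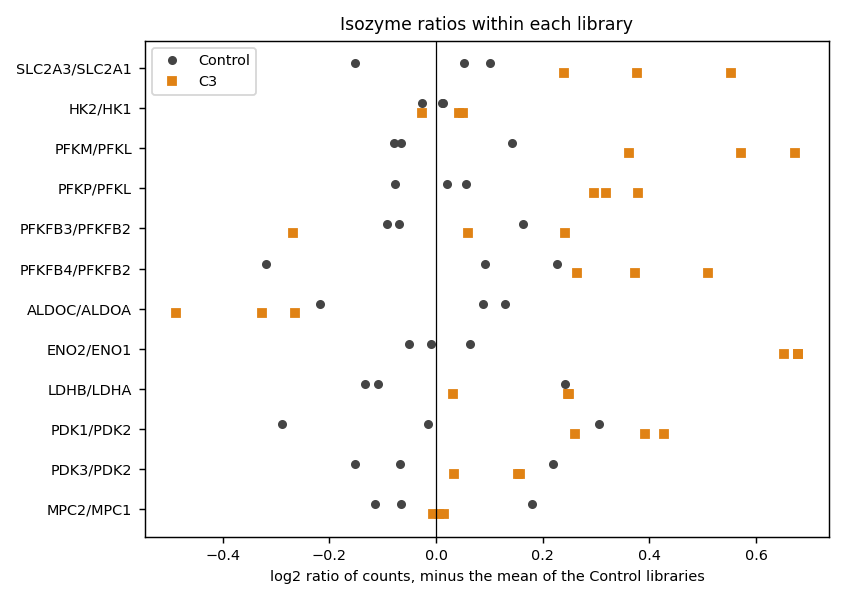
Log2 ratio of the counts of 2 isozymes in each library (x axis, minus the mean of the 3 Control libraries) for 12 pairs, Control as circles and C3 as squares. The 3 C3 libraries of ENO2/ENO1 lie close together, 0.67 above the Control mean on average, while those of HK2/HK1 overlap the Control libraries, with 2 of the 3 above them.

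The direction of change went with the expression level of the member. Of the 18 members with a mean normalized count below 2000, 4 were higher and 1 was lower, and of the 18 above, 0 were higher and 6 were lower. Without ALDOA and LDHB, whose levels are uncertain, 3 of 16 members in the lower range were higher and 1 was lower. With library size alone, the lower range had 6 higher and 1 lower and the upper range 2 higher and 2 lower. Leaving out 1 library gave between 1 (without C3 replicate 3) and 9 (without C3 replicate 1) lower members in the upper range. There were 3 without Control replicate 1 and 2 without Control replicate 2 or C3 replicate 2, and 0 were higher in each case. Over all genes tested, the share called higher went from 12.1% below 500 counts through 10.9% and 6.65% to 3.24% at 10000 counts or more, and the share called lower from 3.75% through 14.9% and 17.5% to 19.9%. The median log2 fold change of the members in these 4 ranges was 0.080, 0.072, -0.137 and -0.120, beside 0.064, -0.035, -0.061 and -0.102 for all genes. Across the 36 members, which share the same 6 libraries, Spearman's rho between level and log2 fold change was -0.55 and Pearson's r was -0.52, beside -0.23 and -0.25 across all genes tested. Without ALDOA and LDHB, rho was -0.51. Genes are not independent replicates, so these are descriptions. The part of expression level in the changes of single members was not tested.

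**Figure D4:**
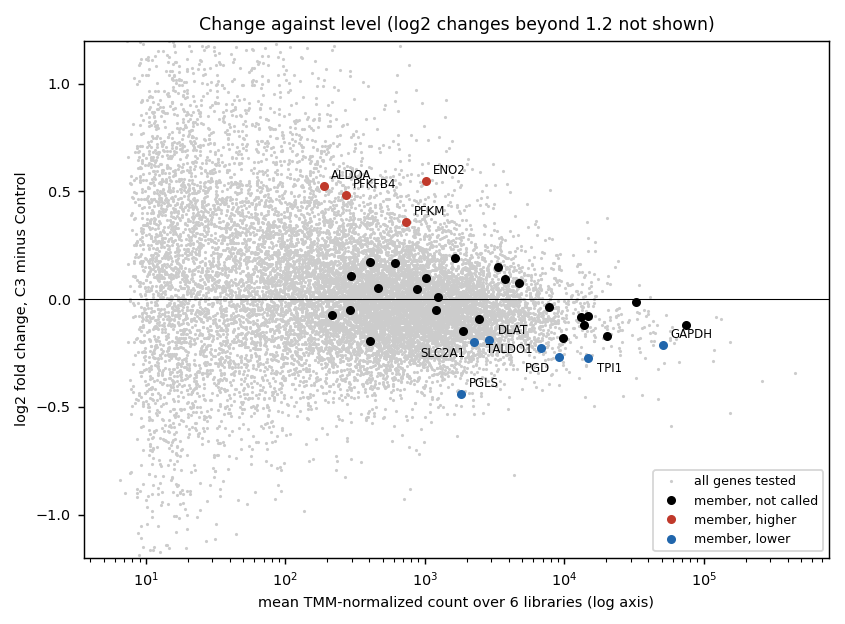
Log2 fold change (y axis, C3 minus Control) against the mean normalized count over 6 libraries (x axis, log scale) for all genes tested in grey and the 36 members in black, red (higher) and blue (lower). The 4 higher members have mean counts below 2000, and 218 genes with changes beyond 1.2, none of them a member, are outside the plotted range.

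Of 52 further genes of the pathway, 22 passed the count filter, 3 were higher and 3 were lower, which is near the 11.0% and 8.77% of all genes tested, with a median log2 fold change of -0.036. The higher genes were ENO3, which encodes muscle enolase (0.59, SE 0.122, edgeR adjusted p = 0.00108), PRPS2 (0.23, SE 0.073, edgeR adjusted p = 0.0298) and SLC2A4, which encodes the insulin-regulated transporter GLUT4 (0.59, SE 0.207, edgeR adjusted p = 0.0455). The normalized counts of ENO3 were 248.8, 180.3 and 175.5 in Control and 315.3, 318.7 and 283.9 in C3, without overlap. The lower genes were PGM1, the phosphoglucomutase that links glycogen to glycolysis (-0.41, SE 0.083, edgeR adjusted p = 0.001), PDPR (-0.25, SE 0.065, edgeR adjusted p = 0.00832) and ADPGK (-0.25, SE 0.075, edgeR adjusted p = 0.0197). The other 30 had at most 13 counts in any library, and 10 of these were at 0 in all.

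Tricarboxylic acid cycle genes, downstream of pyruvate dehydrogenase, were lower for 8 of 19 and higher for 0, beside 8.77% lower and 11.0% higher of all genes tested, with a median of -0.162. IDH3G (-0.32), a subunit of isocitrate dehydrogenase, and SDHC (-0.28), a subunit of succinate dehydrogenase, were among the lower genes. Among 28 genes of the hypoxia response outside glycolysis, 25 were tested, 7 were higher and 0 were lower, beside 11.0% and 8.77% of all genes tested, with a median of 0.199. The smallest p-values belonged to VHL (0.48), P4HA2 (0.72) and VEGFA (0.36), and VHL encodes the protein that targets hypoxia-inducible factors for degradation. Of 9 genes for glucose sensing, 7 were tested, 1 was higher and 1 was lower, beside 11.0% and 8.77% of all genes tested, with a median of 0.032. PPARGC1B was higher (0.26) and TXNIP, which restrains glucose uptake, was lower (-0.33, SE 0.068, edgeR adjusted p = 0.00123). The other 5 tested were not called.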

How the data were processed

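RNA of 6 libraries was sequenced, 3 of Control and 3 of C3. The deposited values are raw counts per Ensembl gene, whole numbers without normalization, which the authors made with fastp, STAR 2.6.1d on GRCh38 (hg38) and featureCounts 1.5.0-p3, per the submitters' processing notes. Annotation release, strand setting and treatment of multi-mapping reads were not given in the sources used here. Annotated pseudogenes of 16 members received at most 1.17% of the counts of their family.

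Columns were assigned to libraries by their names and the sample titles. Symbols and coordinates came from GENCODE release 44 (58207 of 58735 identifiers matched). A gene was tested if 3 or more libraries had 10 or more counts, which left 15078 genes. The quasi-likelihood test of edgeR 4.0.16 in R 4.3.3 was applied to these counts with TMM factors, and p-values were adjusted by Benjamini-Hochberg over all genes tested. Normalized counts are counts scaled to the mean effective library size. RPKM and shares of isozymes use the length of the Ensembl canonical transcript. Ratios use counts plus 0.5. Library totals between 16159449 and 22821722 limit the precision of the least abundant members.

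Alternatives were DESeq2 (1.42.0), limma-voom (3.58.1), RLE factors, scaling by library size alone, testing without the count filter, a block for the replicate number, leaving out each library and, for ratios, a pseudocount of 5. Leaving out ALDOA and LDHB in the comparison of level and change was chosen after seeing the data. Values per library are given for members at an adjusted p-value below 0.05, other members by fold change. From each further list up to 3 called genes with the smallest p-value are named, apart from a gene that is not reported here. ENO3 is one of these, while PRPS2, SLC2A4 and ADPGK were named after their values were seen, to account for small counts. PDHX and DLD were also named after their values were seen, as further subunits of pyruvate dehydrogenase. The members and lists, written by hand from general knowledge, were chosen with earlier results of these data known. Upstream sequences are the 250 bases before a RefSeq start (GRCh38.p14). For GAPDH, TPI1 and ENO2 this start lies inside the GENCODE gene span. Experiments of the study other than RNAseq were not analysed here.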

Additional observations from a re-analysis of the deposited data

How the results depend on the processing

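ENO2, PFKM, PFKFB4, ALDOA, PGLS and PGD were called in the same direction under all 12 alternatives, TPI1 under 11, TALDO1 under 8, SLC2A1 under 7, DLAT under 6 and GAPDH under 5 (adjusted p between 0.00016 and 0.234). RLE factors gave the same 11 calls. With library size alone, 8 members were higher and 3 were lower, with 4 higher DEGs (PFKM was added) and 0 lower DEGs. The median was then 0.026 over members and 0.076 over all genes. PGAM1 (0.037), PKM (0.059), PDK3 (0.003), MPC1 (0.025) and MPC2 (0.028) changed sign without being called. DESeq2 gave -0.00048 for RPIA. No count filter, DESeq2 and limma-voom called 8 members lower each, with 5, 4 and 4 higher, and DLAT was not called without the filter. The replicate numbers showed no pairing in expression. Deviations from the group mean correlated at 0.021, -0.047 and 0.03 between same-numbered libraries, and Control replicate 2 correlated best with C3 replicate 1 (0.064). Whether same-numbered libraries were handled together cannot be told from these values. The replicate block gave 5 higher and 6 lower members, losing GAPDH and gaining SLC2A3.

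Leaving out 1 library gave between 4 and 5 members higher, between 2 (without C3 replicate 3) and 10 (without C3 replicate 1) lower, between 1 (without Control replicate 1) and 3 higher DEGs and between 0 (without C3 replicate 3) and 1 lower DEGs. The lower calls numbered 4 without Control replicate 1 and 3 without Control replicate 2 or C3 replicate 2. Uncalled members that changed sign when 1 library was left out ranged from -0.047 to 0.203 for PFKFB2, from -0.051 to 0.013 for PKM, from -0.040 to 0.232 for LDHB, from -0.046 to 0.052 for RPIA, from -0.099 to 0.001 for MPC1 and from -0.109 to 0.068 for MPC2. The cause of these shifts was not tested. Depth limits the precision of low counts. PFKFB2, PFKFB4, ALDOA, LDHB, PDK3 and MPC2 had standard errors above 0.1, of which the part due to depth was not tested.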
